A study of Rattus norvegicus with 48 samples.

Results

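Macrophage and monocyte genes were followed in kidney RNA of male rats from 4 strains, F, L, FL and LF, before and during daily gavage with indole-3-carbinol (I3C). The inhibitory receptor gene Lilrb4 was higher in strains F and FL than in strains L and LF before treatment. Fcgr3a, which encodes an IgG receptor, and Adgre1, which encodes the macrophage surface receptor F4/80, were lower at day 7 of treatment than at day 0, and strain LF was the strain in which that fall passed the test on its own. Cd14 passed no test, and Itgam passed some only under other processing of the values. The genes were taken by name: 9 were listed, and the probe sets whose platform annotation gives their symbol were collected. Of the 9, 5 were measured, out of 7997 genes on the arrays with values here: Fcgr3a with 7 probe sets, Adgre1 (annotated as Emr1) with 22, Itgam with 30, Cd14 with 5 and Lilrb4 with 12. Cd68, Cd163, Csf1r and Mrc1 were not analysed here.

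The study's 48 exon arrays made 12 groups of 4, each strain at days 0, 7 and 10. Rats of days 7 and 10 received I3C at 100 mg/kg/day. Rats of day 0 received the carrier, vegetable oil, so I3C and the days of gavage cannot be told apart, since no group had the carrier at day 7 or 10. The rats were 12 weeks old per the sample characteristics and 12 to 14 weeks old per the treatment protocol, with 8 rats in each treatment group. The labels name the strains by letters alone and name no transgene. From outside the labels, I3C is known to switch on a renin transgene under the Cyp1a1 promoter in rats that carry one, and the labels do not name the strains that do. The study calls the 4 arrays of a group biological replicates, but the labels do not state how many of the 8 rats went into each, and the p-values speak for the spread from array to array.

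Macrophages of the kidney lie between the tubules, where they take up debris and immune complexes, and blood monocytes join them after injury. Fc receptors such as the product of Fcgr3a bind antibody on particles and signal through chains with activating motifs, while Lilrb4 carries inhibitory motifs that dampen such signals. Adgre1 encodes an adhesion receptor used as a marker of tissue macrophages, Itgam encodes the alpha chain of an integrin that binds complement-coated particles, and Cd14 encodes a receptor that hands bacterial lipopolysaccharide to Toll-like receptor 4. Cd14 is also made by other cells, and Fcgr3a by natural killer cells. Macrophage genes are driven in part by the transcription factor PU.1, which binds purine-rich boxes.

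The promoters of the 3 genes that passed a test are shown because 2 of them moved together and the third split the strains. They are RefSeq's sequences of the GRCr8 build, which is of the BN strain and not of the rats studied, from 250 bases before the gene start to 50 after it. The motif searched was the purine-rich box GAGGAA on both strands, and capitals mark it as it reads on the strand shown.
Fcgr3a, chr13:85782386-85782685, + strand: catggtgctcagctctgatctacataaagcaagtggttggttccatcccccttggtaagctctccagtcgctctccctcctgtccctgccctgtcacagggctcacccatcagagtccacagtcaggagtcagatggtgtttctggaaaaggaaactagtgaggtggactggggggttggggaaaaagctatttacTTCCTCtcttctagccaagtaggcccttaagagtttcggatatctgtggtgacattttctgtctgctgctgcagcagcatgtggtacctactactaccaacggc
Adgre1, chr9:2329190-2329489, + strand: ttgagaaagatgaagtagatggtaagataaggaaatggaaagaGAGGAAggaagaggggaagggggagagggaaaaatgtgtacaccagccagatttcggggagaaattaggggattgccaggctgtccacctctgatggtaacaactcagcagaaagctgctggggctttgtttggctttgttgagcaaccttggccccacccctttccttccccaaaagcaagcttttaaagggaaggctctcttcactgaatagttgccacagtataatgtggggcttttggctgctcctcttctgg
Lilrb4, chr1:78853203-78853502, - strand: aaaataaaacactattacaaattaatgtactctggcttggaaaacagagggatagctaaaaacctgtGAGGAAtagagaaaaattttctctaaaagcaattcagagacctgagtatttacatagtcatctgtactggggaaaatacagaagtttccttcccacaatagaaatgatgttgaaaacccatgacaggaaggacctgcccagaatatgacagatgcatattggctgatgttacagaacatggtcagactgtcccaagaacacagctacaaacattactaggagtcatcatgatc
Fcgr3a holds the box in reverse at position -54 from the start, and Adgre1 and Lilrb4 hold it forward at positions -207 and -183. All 9 listed genes had a promoter in the table and 8 of them held the box at least once, against 27.6% of the 33469 promoters of that length. A match is a description of letters, and no binding was measured.

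The values are log2 intensities. A gene value is a summary of its probe sets, so levels are compared between arrays for 1 gene and not between genes. The tissue check held: 7 of 8 kidney tubule and podocyte genes were measured, and Umod, made by the thick ascending limb, lay between 12.44 and 12.96 on the 48 arrays. The median probe set of an array ranged from 6.03 to 6.61, and no 2 arrays held the same values. Cd14 lay above its array's median on all 48 arrays, Lilrb4 lay below it on 25, Fcgr3a on 37, Adgre1 on 43 and Itgam on 48. All 30 probe sets of Itgam had means under the median probe set, and its gene value spanned 3.76 to 4.38. Within groups the genes moved with the array median: deviations from the group mean correlated with it at r = 0.80 for Lilrb4, 0.69 for Adgre1, 0.53 for Cd14, 0.42 for Fcgr3a and 0.32 for Itgam (descriptions over 48 arrays). Equalising the array medians was run as an alternative, and its values are given beside some of the results, not all. No called difference of a member lost its call under it.

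**Figure D1:**
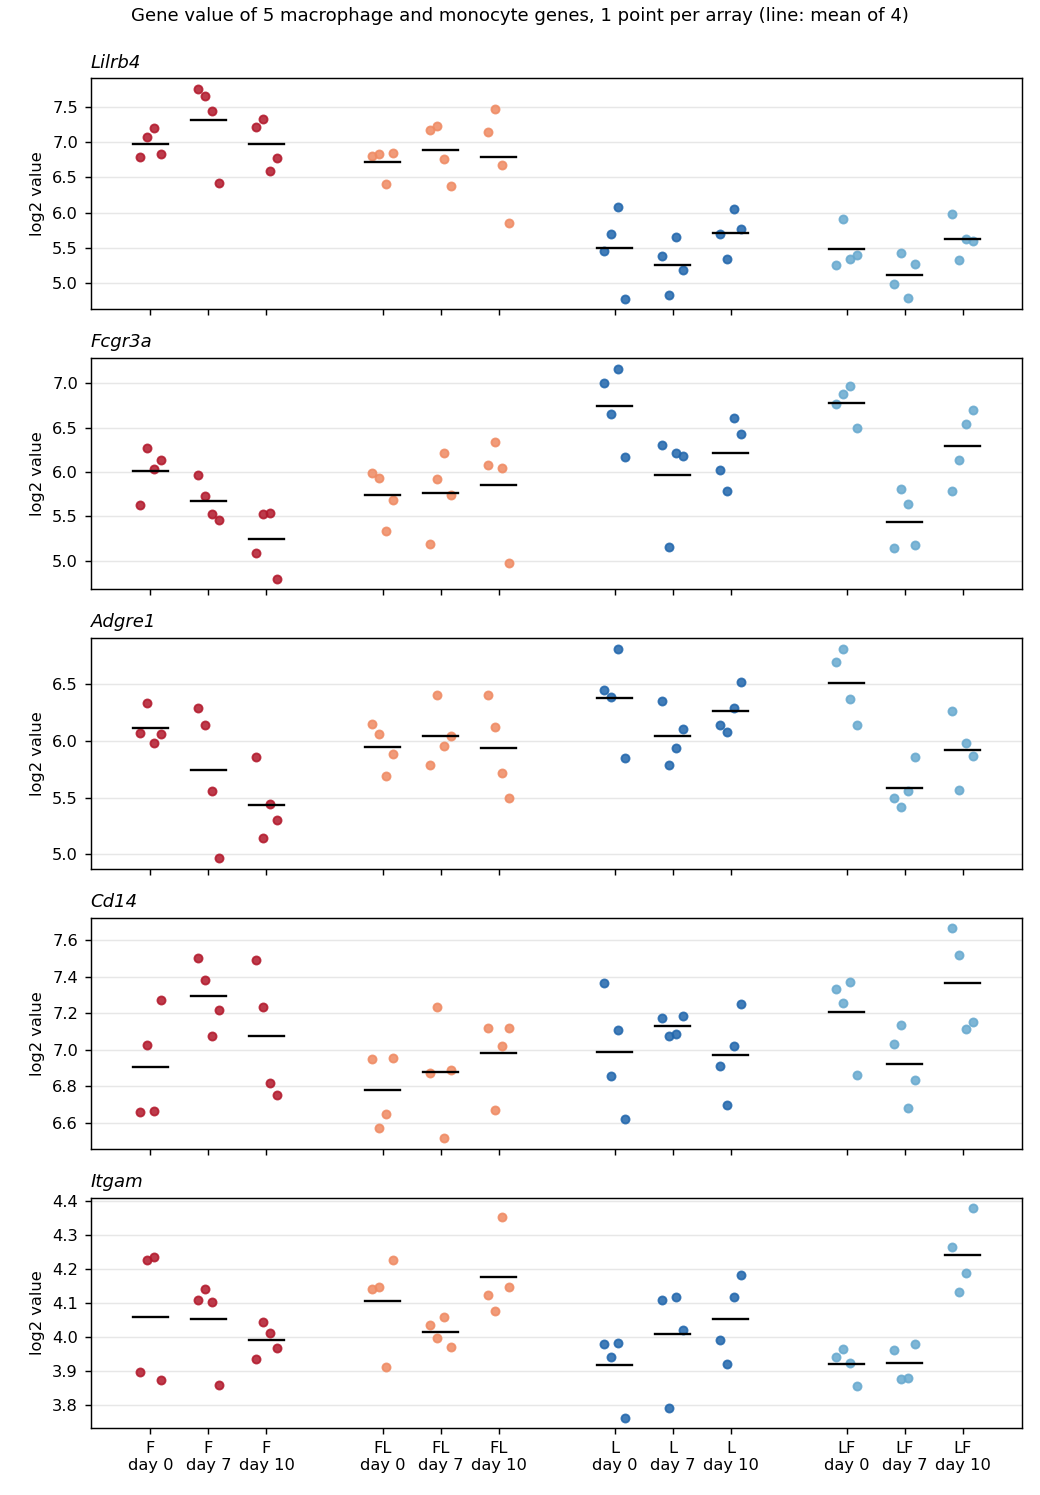
Gene value (log2 intensity, vertical axis) of the 5 genes on each of the 48 arrays, by strain and day; points are arrays and the line is the mean of 4. Lilrb4 splits strains F and FL from L and LF, and Fcgr3a and Adgre1 drop from day 0 to day 7 in strain LF, where the groups do not overlap.

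Fcgr3a was the gene with the largest change over time among the 5. In strain LF its 4 arrays read 6.77, 6.88, 6.97 and 6.50 at day 0. At day 7 they read 5.14, 5.81, 5.64 and 5.17, and at day 10 they read 5.78, 6.13, 6.55 and 6.70. Every day 7 array lay below every day 0 array, and day 10 spanned the space between and overlapped both. In strain L the day 0 arrays read 7.00, 6.66, 7.16 and 6.17. The day 7 arrays of strain L read 6.30, 5.15, 6.21 and 6.18, and those of day 10 read 6.02, 5.79, 6.61 and 6.43. Days overlapped in strain L, and 1 day 7 array stood well under the other 3.

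The 2 remaining strains started lower. Strain F arrays read 5.62, 6.27, 6.03 and 6.13 at day 0, and 5.96, 5.72, 5.53 and 5.46 at day 7. They read 5.09, 5.53, 5.54 and 4.80 at day 10, all under the lowest day 0 array. Strain FL read 5.99, 5.93, 5.34 and 5.68 at day 0, then 5.18, 5.92, 6.21 and 5.73 at day 7, and 6.08, 6.33, 6.04 and 4.97 at day 10, with all 3 days overlapping. By group mean, Fcgr3a was highest in LF at day 0 (6.78 ± 0.21, SD, n = 4) and L at day 0 (6.75 ± 0.44), and lowest in F at day 10 (5.24 ± 0.36) and LF at day 7 (5.44 ± 0.33). Of the 11 gaps between neighbours in that order, the one under L at day 0 exceeded the larger of the 2 SDs.

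Averaged over the 4 strains, Fcgr3a was lower at day 7 than at day 0 by a log2 difference of -0.61 ± 0.13 (SE), a 1.53-fold fall (limma, adjusted p = 0.00336, Benjamini-Hochberg over 7997 genes). The difference was negative in each of the 4 replicate numbers, from -0.78 to -0.48. Within strain LF the difference was -1.34 ± 0.27, a 2.53-fold fall (adjusted p = 0.00292). The other strains gave -0.79 in L (adjusted p = 0.947), -0.34 in F (adjusted p = 0.988) and 0.03 in FL (adjusted p = 0.985), each with an SE of 0.27. In strain L 0 of the 7997 genes were called at day 7, so the adjusted p there does not show that Fcgr3a stayed level. The averaged call was lost without the 12 arrays of strain LF, where the mean of the other 3 strains was -0.37 (adjusted p = 0.433). No other strain was left out in turn, so this loss does not single out LF. Whether the strains differ in response was tested with the interaction of strain and day, which did not pass for Fcgr3a (adjusted p = 0.445). With equal array medians the fall was -0.51 over the strains (adjusted p = 0.00627) and -1.15 within LF (adjusted p = 0.00436). Leaving out arrays ended the averaged call once, without replicate number 2 (-0.55, adjusted p = 0.0673), and the LF call in none of 52 fits.

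The single probe sets of Fcgr3a moved alike. All 7 were lower at day 7 in strain LF, by -1.68 to -0.67, and the LF arrays of days 0 and 7 did not overlap for 4 of them. Probe sets of 1 gene share the arrays and are not replicates. How often probe sets or genes at large fail to overlap was not counted, so such counts, here and below, are descriptions. The array medians of strain LF averaged 6.42 at day 0 and 6.23 at day 7, which lowers probe sets at large. Fcgr3a has near-identical Fc receptor neighbours, so its probes can also bind RNA of another copy. The 14 probe sets annotated as Fcgr3 (now Fcgr2a, another low-affinity IgG receptor) had a median day 7 difference of 0.08 over the strains, the 8 of the inhibitory receptor Fcgr2b had 0.12, and 12 annotated to both had 0.02. The median difference was below 0 for the Fcgr3a probe sets and above 0 for those of its neighbours. Many of the latter were dim, where a fall would be hard to see. Probe set means ran from 2.05 to 5.35 for Fcgr2b, all under the median probe set (6.31). They ran from 2.11 to 8.42 for Fcgr3 and from 2.56 to 8.63 for those annotated to both. The Fcgr2a gene value averaged 4.11. Binding of other copies was not tested.

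Adgre1 followed the same course. In strain LF its arrays read 6.70, 6.81, 6.37 and 6.14 at day 0. At day 7 they read 5.50, 5.42, 5.56 and 5.85, and at day 10 they read 6.26, 5.57, 5.98 and 5.87. The day 7 arrays lay below all day 0 arrays, and day 10 overlapped both. Strain F read 6.06, 6.33, 5.98 and 6.06 at day 0, a narrow band. It read 6.29, 6.14, 5.56 and 4.96 at day 7 and 5.86, 5.14, 5.44 and 5.31 at day 10. Its day 10 arrays all lay under its day 0 arrays, while day 7 ran from within that band to the lowest Adgre1 value of the series. Strain L read 6.45, 6.39, 6.81 and 5.85 at day 0, 6.35, 5.79, 5.94 and 6.10 at day 7, and 6.14, 6.08, 6.29 and 6.52 at day 10. Strain FL read 6.15, 6.06, 5.69 and 5.88 at day 0, 5.79, 6.40, 5.95 and 6.04 at day 7, and 6.41, 6.12, 5.71 and 5.49 at day 10. The days overlapped in both of these strains.

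The group means of Adgre1 ran from 6.50 ± 0.30 in LF at day 0 to 5.44 ± 0.31 in F at day 10, and no neighbours in the order differed by more than the larger of their SDs. Averaged over the strains, Adgre1 was lower at day 7 by -0.38 ± 0.11 (adjusted p = 0.0313), with all 4 replicate numbers negative (-0.46 to -0.24). In strain LF the difference was -0.92 ± 0.22, a 1.89-fold fall (adjusted p = 0.0139). The other strains gave -0.37 (F, adjusted p = 0.859), -0.33 (L, adjusted p = 0.998) and 0.10 (FL, adjusted p = 0.942). The LF array medians averaged 6.42 at day 0 and 6.23 at day 7, and the LF difference includes that shift. After quantile normalization the averaged difference was -0.29 (limma, adjusted p = 0.0309). Without strain LF the averaged difference was -0.20 (adjusted p = 0.646), and the interaction of strain and day gave an adjusted p of 0.663. All 22 probe sets were lower at day 7 in strain LF (-2.23 to -0.14), with 10 whose arrays did not overlap, and 21 of 22 were lower over the strains. The averaged call held in 40 of 52 fits that left out 1 array or all arrays of 1 replicate number, and the LF call in 46 of 52. Over the strains the call was lost without replicate number 1, 2 or 3 (adjusted p of 0.0612, 0.217 and 0.239). It was also lost without any of 9 single arrays, namely F day 0 replicate 2, L day 0 replicate 3, FL day 0 replicate 1, LF day 0 replicates 1 and 2, F day 7 replicates 3 and 4, L day 7 replicate 2 and FL day 7 replicate 1 (adjusted p from 0.0519 to 0.071). Within LF it was lost without replicate number 1, 2 or 3 (adjusted p of 0.0774, 0.302 and 0.154), and without LF day 0 replicate 1 (0.0558) or 2 (0.0935) or LF day 7 replicate 2 (0.0516).

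Of the 5 genes, 2 were called at day 7 over the strains, both lower. Among all genes 4.98% were called, and 3.88% were called lower. The median of the 5 differences was -0.02, beside -0.03 over all 7997 genes, and the other 3 genes lay between -0.02 and 0.09. In strain LF at day 7 the same 2 genes were called lower, against a background of 2.44% called and 2.05% called lower, with a median of -0.36 beside -0.07 over all genes. No member was called at day 7 in strain F (0.688% of all genes called), strain L (0%) or strain FL (0.15%). In these strains 1, 1 and 0 of the 5 had an unadjusted p under 0.05, beside 542, 340 and 491 of the 7997 genes. In kidney tissue, fewer macrophages and less RNA per macrophage cannot be told apart.

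**Figure D2:**
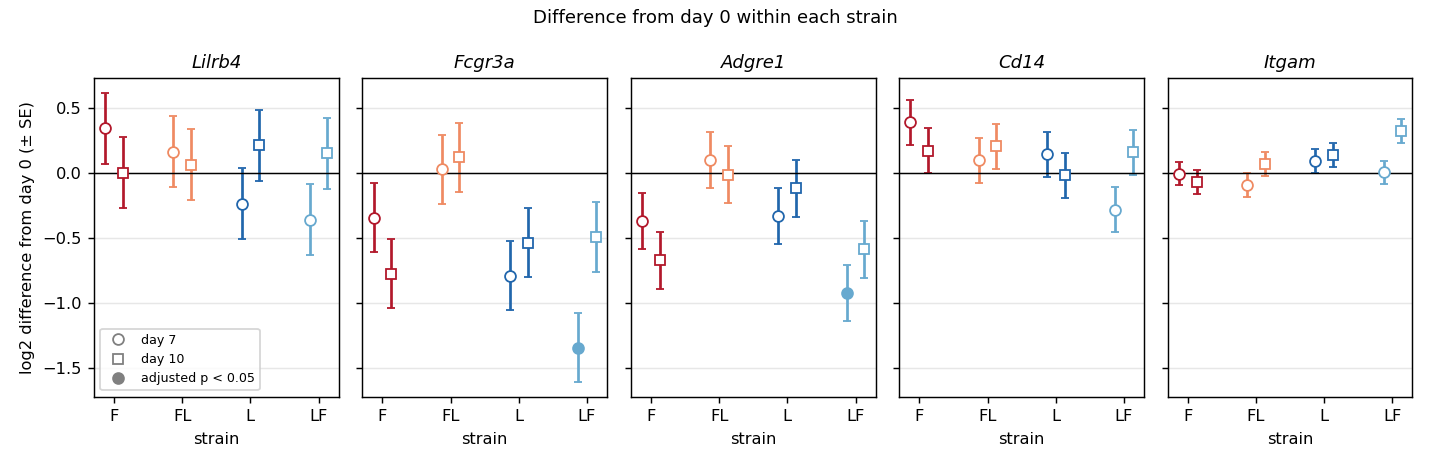
Log2 difference from day 0 at day 7 (circles) and day 10 (squares) within each strain, with the SE of the fit; filled symbols have an adjusted p under 0.05. Fcgr3a and Adgre1 in strain LF at day 7 are the 2 filled points, at -1.34 and -0.92.

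At day 10 no member was called over the strains, where 2.3% of all genes were. An unadjusted p under 0.05 was found for 3 of the 5, and for 776 of the 7997 genes. Fcgr3a differed from day 0 by -0.42 (adjusted p = 0.0938) and Adgre1 by -0.35 (adjusted p = 0.0898). Itgam gave 0.11 (adjusted p = 0.27), Cd14 0.13 (adjusted p = 0.775) and Lilrb4 0.11 (adjusted p = 0.946). With equal array medians Fcgr3a (-0.41, adjusted p = 0.0454) and Adgre1 (-0.34, adjusted p = 0.0127) were called at day 10, as they were after quantile normalization. Within strains the share of all genes called at day 10 was 0.375% (F), 0% (L), 0.025% (FL) and 1.04% (LF), with no member called in any and 2, 0, 0 and 2 members at an unadjusted p under 0.05. Of the 7997 genes, 713 (F), 336 (L), 328 (FL) and 534 (LF) had such a p at day 10, and 340 did in L at day 7. The strain F differences were -0.77 for Fcgr3a (adjusted p = 0.269) and -0.67 for Adgre1 (adjusted p = 0.235), in groups that did not overlap for either gene.

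Between days 7 and 10 no member was called over the strains (0.075% of all genes called). An unadjusted p under 0.05 was found for 1 of 5, and for 1051 of the 7997 genes. Within strains F, L and FL no gene of the 7997 was called (0%), with 348, 377 and 481 genes at an unadjusted p under 0.05, and 0 of the 5 members among them. In strain LF 1.34% of all genes were called, 101 higher at day 10 and 6 lower, while with equal array medians 76 were higher and 99 lower. No member was called there, and 3 of 5 had an unadjusted p under 0.05, beside 1487 of the 7997 genes. Fcgr3a was higher at day 10 than at day 7 by 0.85 ± 0.27 (adjusted p = 0.0963). With the replicate number as a block that difference passed (adjusted p = 0.0406), as did that of Itgam (0.32, adjusted p = 0.0297). Adgre1 gave 0.34 (adjusted p = 0.397).

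Lilrb4 differed between strains rather than between days. At day 0 the strain F arrays read 6.79, 7.07, 7.21 and 6.83, and the strain FL arrays read 6.81, 6.84, 6.41 and 6.84. Strain L read 5.46, 5.69, 6.08 and 4.78, and strain LF read 5.26, 5.92, 5.35 and 5.40. The lowest array of F and FL lay above the highest of L and LF. The split held at day 7, and at day 10 for all but 1 FL array. Strain F read 7.75, 7.65, 7.44 and 6.42 at day 7 and 7.22, 7.32, 6.59 and 6.78 at day 10, and strain FL read 7.18, 7.23, 6.76 and 6.38 and then 7.14, 7.47, 6.68 and 5.86. Strain L read 5.39, 4.83, 5.66 and 5.19 at day 7 and 5.70, 5.35, 6.05 and 5.77 at day 10, and strain LF lay between 4.79 and 5.43 at day 7 and then read 5.98, 5.33, 5.63 and 5.60. Over the 3 days strain F ran from 6.42 to 7.75 and strain LF from 4.79 to 5.98. That FL array, at 5.86, reached into the range of L and LF.

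The order of the 12 group means had 1 gap larger than the SDs beside it. It fell between the lowest FL group (6.72 ± 0.21 at day 0) and the highest L group (5.72 ± 0.29 at day 10). Strain F exceeded strain L at day 0 by 1.47 ± 0.27, a 2.77-fold difference (adjusted p = 0.000684), and strain LF by 1.49, a 2.81-fold difference (adjusted p = 0.000463). Strain FL exceeded LF by 1.24 (adjusted p = 0.0048), and L was lower than FL by -1.22 (adjusted p = 0.00845). The 2 pairs on the same side differed little: F minus FL was 0.25 ± 0.27 (adjusted p = 0.999) and L minus LF was 0.02 ± 0.27 (adjusted p = 1). Both F calls held in 52 of 52 fits with arrays left out. FL minus LF lost its call without replicate number 1 (1.14, adjusted p = 0.108), and L minus FL without replicate number 1 (adjusted p = 0.124) or 2 (0.0534) or L day 0 replicate 4 (0.0536). By day, Lilrb4 differed by -0.02 at day 7 (adjusted p = 0.94), and the interaction of strain and day gave an adjusted p of 0.943.

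All 12 Lilrb4 probe sets were higher in F than in L at day 0, by 0.32 to 2.16 with a median of 1.48, and the F and L arrays did not overlap for 9. In FL against LF 11 of 12 were higher. A difference over a whole gene can come from RNA or from sequence differences under the probes, and which applies was not tested. Of 10 measured genes next to Lilrb4 on chromosome 1, 5 on each side, none was called for F minus L. Their differences ran from -0.19 to 0.51, and the upper end was Fcar, the IgA receptor gene, whose difference had an adjusted p of 0.116. Lilrb3, a paralog beside it, gave 0.07 (adjusted p = 0.979).

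**Figure D3:**
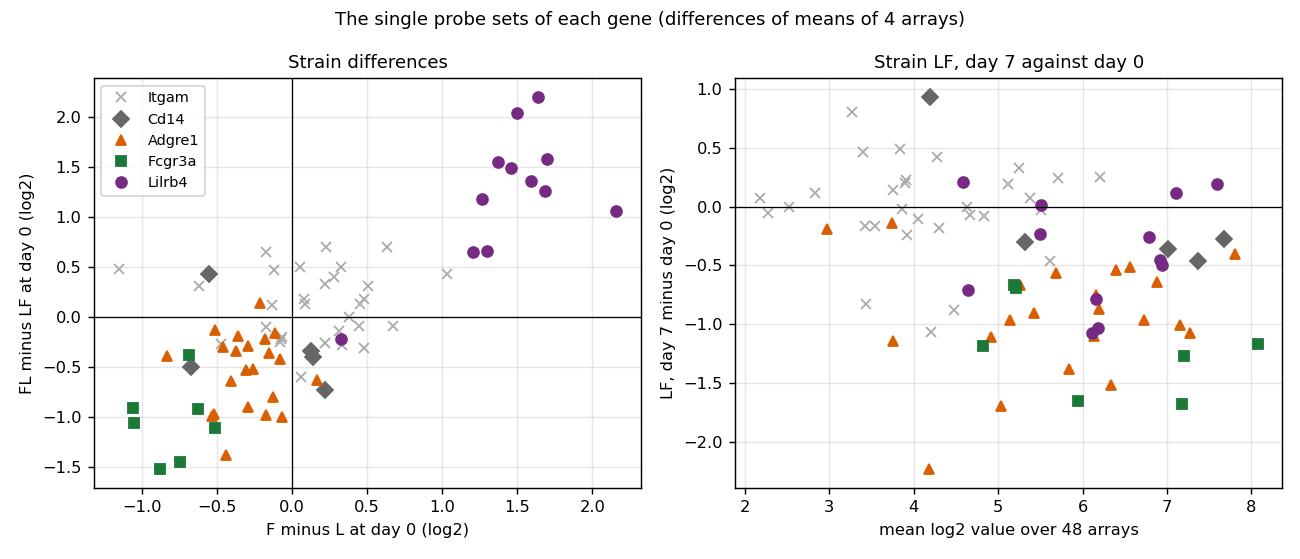
Single probe sets of the 5 genes: left, F minus L (horizontal) against FL minus LF (vertical) at day 0; right, the mean log2 value over 48 arrays against the day 7 minus day 0 difference in strain LF. Lilrb4 fills the upper right of the left plot apart from 1 probe set, and the Fcgr3a and Adgre1 probe sets lie below 0 on the right.

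Fcgr3a differed between strains at day 0 in the opposite sense. Strain L exceeded FL by 1.01 ± 0.27 (adjusted p = 0.0355), and FL was lower than LF by -1.05 ± 0.27 (adjusted p = 0.0186), in groups that did not overlap. Strain F minus L was -0.74 (adjusted p = 0.252) and F minus LF was -0.77 (adjusted p = 0.171). F and LF did not overlap, while F and L did, and L minus LF was -0.03. Other markers differed beside Fcgr3a in FL minus LF, and their part was not tested. Of 6 pan-leukocyte genes 1 was called lower (Cd53, -0.74, adjusted p = 0.0155), and the median of the 6 was -0.33 beside -0.05 over all genes. Their mean level was 6.15 to 6.32 in FL and 6.38 to 6.71 in LF. Of 7 interferon-induced genes 1 was called lower (Mx1, -1.24, adjusted p = 0.00936), with a median of -0.66 and mean levels of 5.03 to 5.27 in FL and 5.55 to 6.33 in LF. Of 12 phagocyte genes 1 was called lower, the lysozyme gene Lyz2 (-0.70, adjusted p = 0.0243). All 7 probe sets were lower in F than in L. The calls against FL depended on single arrays. L minus FL lost its call in 9 of 52 fits: without replicate number 1, 2 or 3, FL day 0 replicate 2, 3 or 4, or L day 0 replicate 1, 2 or 3, with an adjusted p of up to 0.664 without replicate number 3. FL minus LF lost it in 8 of 52: without replicate number 1, 2 or 3, FL day 0 replicate 3 or 4, or LF day 0 replicate 1, 2 or 3, with an adjusted p of up to 0.301. Next to Fcgr3a on chromosome 13, 1 of 10 measured neighbours was called for F minus L, namely Fcgr2a at -0.44 (adjusted p = 0.0218).

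The count of members called at day 0 was 1 of 5 for F minus L, where 1.35% of all genes were called, and 1 of 5 for F minus LF (1.81%). It was 2 of 5 for L minus FL (1.41%) and 2 of 5 for FL minus LF (2.53%), in both cases Lilrb4 and Fcgr3a in opposite directions. In these 2 pairs 3 and 5 of the 5 members had an unadjusted p under 0.05, beside 815 and 1180 of 7997 genes. In each of F minus L and F minus LF 2 members did, beside 669 and 805 of all genes. After quantile normalization Itgam was also called in FL minus LF (0.26, adjusted p = 0.041). The count was 0 of 5 for F minus FL (0.075%) and for L minus LF (0.25%). No member had an unadjusted p under 0.05 in either pair, where 331 and 347 of all genes did. In the test of all 4 strains at day 0, Lilrb4 (adjusted p = 4.97e-05) and Fcgr3a (adjusted p = 0.0139) were called, against 3.11% of all genes. Adgre1 (adjusted p = 0.467), Itgam (0.55) and Cd14 (0.596) were not. In the interaction of strain and day 0 of 5 members were called, and 0.2% of all genes were. An unadjusted p under 0.05 was found for 3 of 5 members, and for 537 of the 7997 genes.

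Cd14 was called in no comparison. Over all arrays it ran from 6.52 to 7.66, and neighbours in the order of its group means never differed by more than the larger SD. The highest group mean was LF at day 10 (7.36 ± 0.27) and the lowest FL at day 0 (6.78 ± 0.20). The largest difference from day 0 was 0.39 ± 0.17 in strain F at day 7 (adjusted p = 0.624). In strain LF Cd14 differed by -0.28 at day 7 (adjusted p = 0.362). The LF mean was 6.92 at day 7, beside 7.36 at day 10, and at day 0 it was 7.20, beside 6.78 in FL. The 5 probe sets did not move alike. Their r with the gene value ran from 0.00 to 0.78, and 3 of 5 were higher in F than in L at day 0.

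Itgam was dim throughout, so a small change would be hard to see. Its largest difference was in strain LF, where the arrays read 3.94, 3.97, 3.92 and 3.86 at day 0. They read 3.96, 3.88, 3.88 and 3.98 at day 7 and 4.26, 4.13, 4.19 and 4.38 at day 10. The day 10 arrays lay above all others of that strain, by 0.32 ± 0.09 over day 0 (adjusted p = 0.0762). That difference passed with the mean of probe sets (adjusted p = 0.0432) and after quantile normalization (adjusted p = 0.0132). The 30 Itgam probe sets moved little alike. Their r with the gene value had a median of 0.23 and ran from -0.05 to 0.61.

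Fcgr3a and Adgre1 moved together across groups. Their values correlated at r = 0.72 over the 48 arrays, at 0.91 over the 12 group means and at 0.46 over deviations from group means, descriptions over values that share arrays and the array median. Lilrb4 correlated with Fcgr3a at -0.49 over group means but at 0.53 over deviations. The members did not all share 1 course: over group means Adgre1 correlated with Lilrb4 at -0.36 and with Cd14 at -0.03. The mean of the 5 centred members thus need not be the course of any 1 of them. The 10 genes most like that mean had the highest r (Pearson, 12 group means) among 6879 genes with 3 or more probe sets. They were Ahr (r = 0.92), which encodes the aryl hydrocarbon receptor, C1s (0.91), a complement protease, Arrb2 (0.91), a beta-arrestin, Kif12, Aopep, Ppt1, Nufip1, the kinase gene Prkcb, Gucy1a1 and Clic2 (0.87). These r are descriptions of 12 points.

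Genes around the members in macrophage biology were read from 8 lists, of which 65 of 94 genes were measured. At day 7 over the strains 2 of the 65 were higher and 5 lower, where 4.98% of all genes were called. The median was -0.08 beside -0.03 over all genes. The split depended on the scale: with equal array medians it was 8 higher and 1 lower, and after quantile normalization 6 and 2. With the replicate block it was 3 higher and 9 lower, and without strain LF it was 1 higher (Gpnmb) and 0 lower. Hmox1, the stress-induced heme oxygenase of the alternative activation list, rose by 1.67 ± 0.44 (adjusted p = 0.0178). Without strain LF its difference was 0.88 (adjusted p = 0.587). Gpnmb, a glycoprotein of phagocyte lysosomes, rose by 0.41 ± 0.10 (adjusted p = 0.0115). Without strain LF that rise was 0.42 (adjusted p = 0.0195). Both genes were also called higher with equal medians.

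The 5 lower genes had differences that passed in the deposited scale and not with equal medians, where the 1 gene called lower was the oxidase subunit gene Cybb (-0.26, adjusted p = 0.0425). None of the 5 was called without strain LF, with adjusted p from 0.273 to 0.66. In the phagocyte list Mpeg1, a pore-forming protein, fell by 0.36 (adjusted p = 0.049) and Aif1, the marker Iba1, fell by 0.20 (adjusted p = 0.0459). Of the chemokine list, Cxcl16 fell by 0.22 (adjusted p = 0.0352) and Cx3cl1, the ligand of the monocyte receptor Cx3cr1, fell by 0.22 (adjusted p = 0.0458). Maf, a macrophage transcription factor, fell by 0.21 (adjusted p = 0.0484) in the CSF1 list, where Csf1 itself gave -0.23 (adjusted p = 0.0508) and Irf8 -0.26 (adjusted p = 0.0539). None of the 7 measured Fc receptor genes, 6 Cd14 and integrin partners, 6 scavenger and complement receptors or 9 inflammatory genes was called. Their leading values were -0.25 for the kinase gene Lyn (adjusted p = 0.0714), 0.18 for the lipopolysaccharide-binding protein Lbp (adjusted p = 0.245), -0.21 for C1qc (adjusted p = 0.16) and 0.13 for Ccr7 (adjusted p = 0.257). Some genes of these lists were dim, such as Il6 (mean 2.69) and Vsig4 (2.34), where a change would be hard to see.

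At day 10 over the strains 5 of the 65 were higher and 1 lower, where 2.3% of all genes were called. The median was 0.02 beside 0.00 over all genes. Hmox1 rose by 1.88 ± 0.44 (adjusted p = 0.0105), Gpnmb by 0.65 ± 0.10 (adjusted p = 3.69e-05) and Lgals3, a galectin of activated macrophages and injured tubules, by 0.40 ± 0.08 (adjusted p = 0.00289). Lbp rose by 0.37 (adjusted p = 0.0111) and the lysosomal protease gene Ctsd by 0.15 (adjusted p = 0.0161), while Cx3cl1 fell by 0.23 (adjusted p = 0.0482). Without strain LF 2 were higher and 0 lower. In strain LF at day 7 Hmox1 was higher by 4.06 (adjusted p = 0.00616), while Mpeg1 (-0.89, adjusted p = 0.0239) and Cxcl16 (-0.50, adjusted p = 0.0239) were lower, beside Fcgr3a and Adgre1.

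**Figure D4:**
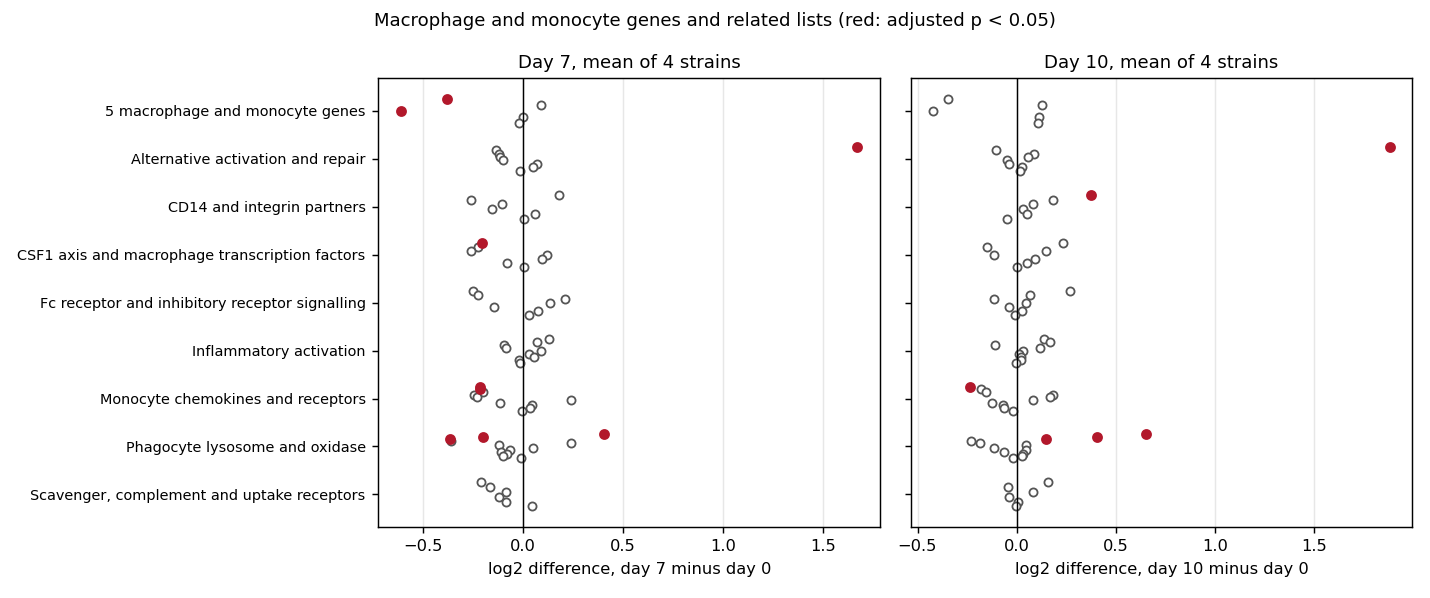
Log2 differences from day 0 at day 7 (left) and day 10 (right), means of 4 strains, for the 5 genes and the measured genes of the 8 related lists; 1 point per gene, filled red where the adjusted p is under 0.05. Hmox1 is the point past 1.5 in both plots, and Fcgr3a and Adgre1 are the 2 red points of the top row at day 7.

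Markers of other cells moved in the same comparisons, and their part in the results was not tested. Of all genes, 4.98% were called at day 7 and 2.3% at day 10 over the strains. In strain LF 2.44% were called at day 7 and 1.34% between days 7 and 10. Of 7 measured interferon-induced genes, 4 were lower at day 7 over the strains, led by Mx2 (-1.19, adjusted p = 1.58e-05). In strain LF 5 of 7 were lower at day 7 and 5 of 7 higher at day 10 than at day 7, and their mean level fell from 5.55 to 6.33 at day 0 to 4.69 to 4.93 at day 7, then stood at 5.76 to 6.82 at day 10. Of 5 tubular injury genes, 4 were higher at day 7 over the strains and all 5 at day 10. Without strain LF 1 of these 5 was higher at day 7 and 3 at day 10. The 6 pan-leukocyte genes had none called over the strains. Their mean level in strain LF was 6.38 to 6.71 at day 0 and 6.10 to 6.34 at day 7, groups that did not overlap, with Cd48 lower (-0.58, adjusted p = 0.0464).

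In the other lists at day 7 over the strains, Cd28 was lower of 7 T cell genes (-0.37), Klrk1 of 7 NK cell genes (-0.30) and Emcn (-0.32), the 1 endothelial gene measured. Hba-a2 was higher of 3 red cell genes, and 4 of 7 kidney genes were lower, with Aqp2 at -0.49 (adjusted p = 0.000132). These calls depended on the scale and on strain LF. With equal array medians 0 T cell and 0 NK cell genes were lower, 2 kidney genes were, and Emcn kept its call. Without strain LF 0 T cell, NK cell, endothelial and red cell genes were called, and 1 kidney gene was lower. None of 4 neutrophil, 4 mast cell, 2 dendritic cell, 3 stroma and 1 B cell genes was called. The mean level of the neutrophil genes was 2.88 to 3.42 at day 0 and 2.93 to 3.50 at day 7.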

How the data were processed

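Kidney RNA of 48 samples was hybridised to Affymetrix exon arrays after ribosomal RNA removal and whole-transcript sense labelling, per the labels' protocols. Each probe set of an array has 1 deposited value, a log2 intensity. The submitters' processing notes name RMA and limma, without versions. The table holds 92401 probe sets with no missing value. Through the platform annotation, 85406 had 1 gene symbol, 1803 had several and 5192 had none. Only the first kind was used. Of 8016 symbols, 6113 were current, 1876 were updated through RefSeq synonyms and 27 were kept as given, which left 7997 genes. A gene value is the Tukey median polish of its probe sets, a median of 9 per gene.

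A model of the 12 strain-by-day group means was fitted to all genes with limma 3.58.1 (R 4.3.3, lmFit and eBayes), with Benjamini-Hochberg adjustment over 7997 genes and calls at an adjusted p under 0.05. The fit was tested on simulated data. Alternatives were the replicate number as a block, quantile normalization, the mean of probe sets, probe sets above the median (6.31) only, the lowest 33.3% of genes left out, compared groups alone, strain LF left out, and each array or replicate number left out. Equal array medians were added after the data were seen. Arrays limit precision by their number, 4 a group. Same-numbered arrays deviated together on average: their 264 pairs had a mean r of 0.0948, beside -0.0316 for 792 differently numbered pairs. This did not hold throughout, as 112 of the 264 correlated over 0.1, and the block was kept as an alternative. With it 894 rather than 398 genes were called at day 7 over the strains.

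The members and the lists were chosen with earlier results of these data known. Named genes are the members, the 10 genes most like the members' mean, and genes of the related lists. From each related list, up to 4 genes with the smallest p at day 7 and up to 4 at day 10 were taken. Of those 4, the called ones, the leading one where none was called, and some others are named. Of the genes called in the other lists, some are named and the rest are only counted.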

Additional observations from a re-analysis of the deposited data

Results flagged for a closer look

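Of 60 groups of 4 arrays (5 genes in 12 groups), 3 held an array whose gap to the nearest other was past Dixon's critical value for its share of the group's range, a rule by which chance flags about 1 group in 20. In strain L at day 7, Fcgr3a of replicate 2 read 5.15, with the other 3 arrays between 6.18 and 6.30. Without it the mean difference over the strains at day 7 was -0.54 (limma, adjusted p = 0.00796) and that within L was -0.52 (adjusted p = 0.999). In strain F at day 7, Itgam of replicate 4 read 3.86, and without it the difference over the strains was 0.02 (adjusted p = 0.88). In strain FL at day 0, Lilrb4 of replicate 3 read 6.41, and without it L minus FL was -1.32 (adjusted p = 0.0102) and FL minus LF was 1.34 (adjusted p = 0.00556).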

How the results depend on the processing

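No called difference of a member changed direction in any alternative run. Some differences that were not called changed sign, such as Lilrb4 at day 7 over the strains (from -0.02 to 0.08 with equal array medians), and splits of higher against lower genes depended on the scale, as given below for all genes. Of the counts of members called, that at day 7 over the strains went from 2 to 0 without strain LF. That at day 10 over the strains went from 0 to 3 after quantile normalization (Fcgr3a, Adgre1 and Itgam), to 1 with the mean of probe sets (Itgam) and to 2 with equal array medians. In strain LF, day 10 minus day 0 went from 0 to 1 after quantile normalization and to 1 with the mean of probe sets (Itgam in both). Day 10 minus day 7 in LF went from 0 to 2 with the replicate block (Fcgr3a and Itgam) and to 1 with the mean of probe sets (Itgam). With compared groups alone, F minus LF went from 1 to 2, and L minus FL from 2 to 1 (Fcgr3a, adjusted p = 0.0546). FL minus LF went from 2 to 3 after quantile normalization (Itgam, 0.26, adjusted p = 0.041). L minus FL also went to 1 with probe sets above the median only (Fcgr3a, 0.94, adjusted p = 0.106). The replicate block changed no other count of members called. The causes were not tested. With arrays left out, the counts ran from 0 to 2 for day 7 and day 10 over the strains, L minus FL and FL minus LF, from 1 to 2 for LF at day 7 and for the test of 4 strains, and from 0 to 1 for LF between days 7 and 10.

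Counts over all genes moved more. At day 7 over the strains 398 genes were called (77.9% lower), against 894 with the replicate block, 603 after quantile normalization (52.1% lower), 588 with equal medians (33.3% lower) and 66 without LF. In LF at day 7 195 were called (84.1% lower), against 683 with the block, 340 after quantile normalization (56.5% lower), 326 with equal medians (37.4% lower) and 66 alone. In LF between days 7 and 10, 101 were higher and 6 lower, against 76 and 99 with equal medians. Among the 65 genes of the related lists, 2 higher and 5 lower at day 7 became 8 and 1 with equal medians, 6 and 2 after quantile normalization, 3 and 9 with the replicate block, and 1 and 0 without LF. Equal medians shifted the median of all genes by 0.10 at day 7 and by 0.19 in LF. Itgam lay under every array's median, which limits what its probe sets can show.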

Other observations

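Genes of tubular injury and of the interferon response also differed between days. Without strain LF fewer tubular injury genes were called over the strains, 1 of 5 at day 7 and 3 of 5 at day 10. Havcr1, the injury marker of proximal tubules, was higher at day 7 by 1.52 (limma, adjusted p = 3e-05) and at day 10 by 2.49 over the strains, and Lcn2, an iron-binding protein of stressed tubules, was higher by 0.52 at day 7 (adjusted p = 0.0126). In strain LF at day 7 the antiviral gene Mx2 was lower by -2.12 (adjusted p = 0.000239), and between days 7 and 10 it was higher by 2.80. Hmox1 varied widely between arrays of strain LF at day 7 (8.61 ± 2.18, SD, n = 4), beside 4.56 ± 0.10 at day 0 and 5.66 ± 0.37 at day 10.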
